A study of Rattus norvegicus with 23 samples.

Results

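Lumbar dorsal root ganglia (DRG, L4 and L5) of Long-Evans rats were compared with intact ganglia 296 h after the sciatic nerve had been cut, the last time of a conditioning lesion series. Both arrays with 296 h in their title were taken, of 23 arrays in the series. The nerve was transected at postnatal days 20 to 24, and the account of the surgery names no other allele or agent for any group. The earlier arrays used for comparison came from 148 h (3 arrays) and from 4, 8 and 12 h (9 arrays), with the same surgery and the same kind of intact reference. On every array the lesioned sample carried Cy5 and the intact sample Cy3. Replicate 2 at 296 h has 294 h in its time label. The labels name cultured cells as the source and mention treated cultures in the labelling protocol, whereas their account of the surgery has the ganglia removed from the animal. Neither the animals behind each replicate nor the source of the intact RNA is given, so the p-values rest on the scatter of these arrays, which may be technical.

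A ganglion holds the cell bodies of sensory neurons, the satellite glia around them, Schwann cells, vessels and macrophages. When the peripheral axon of such a neuron is cut, the neuron turns on growth-associated genes and a changed set of neuropeptides, and turns down genes of pain sensing and transmission. Glia and immune cells of the ganglion respond as well, each with its own course.

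Each value is log2 of the deposited ratio, so that 1 stands for 2-fold more transcript in lesioned than in intact ganglia and -1 for 2-fold less. This direction was taken from the dyes, since the values themselves do not state it. Of 5088 probes, replicate 1 measured 5011 and replicate 2 measured 2869, and 2833 were measured on both. Over those 2833 probes the standard deviation (SD) was 0.590 on replicate 1 and 1.51 on replicate 2. All 53 probes of Gapdh, a glycolytic gene spotted on 51 plates, had an SD of 0.141 on replicate 1 and 0.155 on replicate 2, so the wide spread of replicate 2 did not extend to them. No intensities were used, so the level of a transcript and its signal over background are unknown. In whole ganglia, fewer cells of a type and less RNA per cell cannot be told apart.

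Npy had the highest mean ratio of the 2833 probes and, among genes higher on both arrays, the highest agreement of the arrays. On the signed agreement score Npy had 5.01, and Ace, lower on both arrays, had -5.39. Npy, the neuropeptide Y precursor, had a log2 ratio of 3.98 on replicate 1 and 5.34 on replicate 2. At 148 h it had been 7.38, 4.79 and 4.92, and its mean over 4 to 12 h was -0.12. Lesioned ganglia thus held 25.3-fold more Npy at 296 h (log2 4.66 ± 0.97, SD, n = 2). The effect was past the threshold of an adjusted p of 0.05 in limma's moderated test (adjusted p = 1.32e-05), and so was the difference from 4 to 12 h (4.78, adjusted p = 6.44e-05). All 5 late arrays lay above every array of 4 to 12 h, and the share of all probes with such a separation was not counted. The difference between 296 and 148 h was -1.03 ± 0.57 (standard error, SE), with an adjusted p of 0.348.

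**Figure D1:**
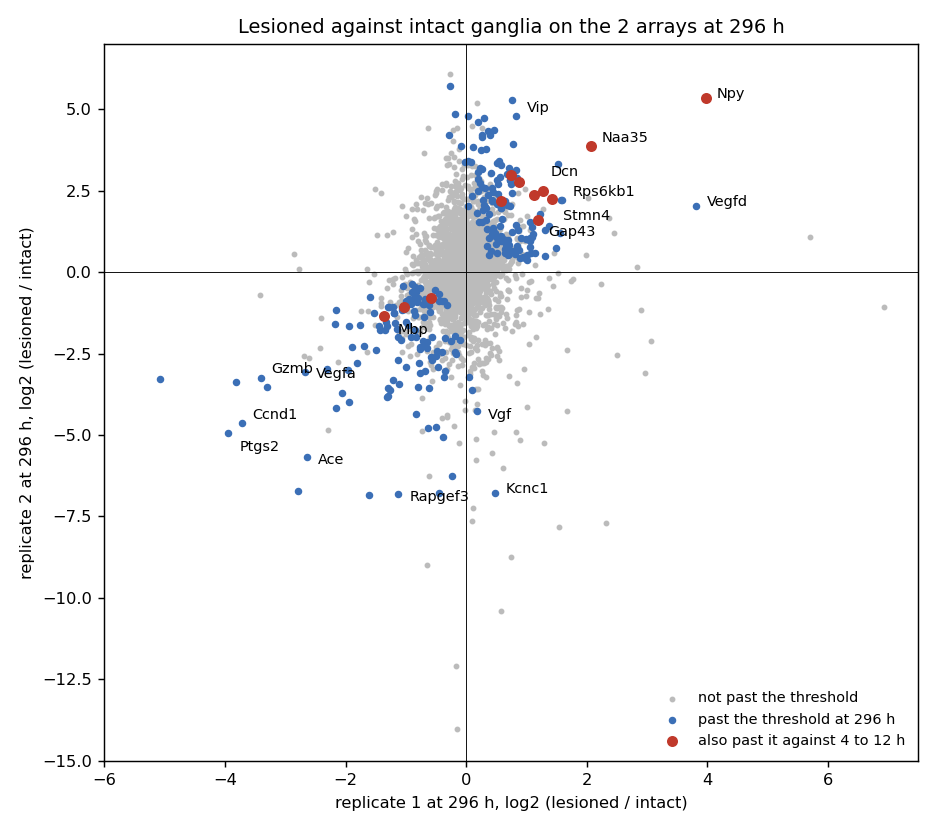
Each point is 1 probe measured on both arrays at 296 h, with log2 of lesioned over intact on replicate 1 (x axis) and on replicate 2 (y axis). Blue points passed the threshold at 296 h and red points also in the difference from 4 to 12 h. Npy lies at 3.98 and 5.34, and the cloud reaches much farther along the y axis than along the x axis.

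Across all 2833 probes the arrays shared only part of their order, with a Spearman rho of 0.279 and a Pearson r of 0.241 (across probes of the same 2 arrays, which are not independent). Signs were the same for 1696 probes, which is 59.9%. Of 104 probes at least 2-fold lower on replicate 1, 93 were below 0 on replicate 2, and of 68 at least 2-fold higher, 40 were above 0. Both arrays were at least 2-fold the same way for 100 probes (3.53%), 26 higher (0.918%) and 74 lower (2.61%), and 22 probes were at least 2-fold in opposite directions. Agreement was thus more frequent among low than among high ratios. Plates 36, 52 and 53, which hold 199 of the probes on both arrays, gave 25 of the 74 and 4 of the 26. Plates, rows and neighbours, here and elsewhere, were read from the probe names.

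In limma's test at 296 h, 264 of 2833 probes passed the threshold, which is 9.32%, with 140 higher (4.94%) and 124 lower (4.38%). Of these, 255 had the same sign on both arrays and 71 were at least 2-fold on both, 19 higher and 52 lower. Replicate 2 had the larger ratio for 214, and 102 were under 1.5-fold on replicate 1. When weights were estimated for each array, 11 probes passed (0.388%), and all 11 were among the 264. They were those of Npy, Naa35, Stmn4, Gap43, Dcn, Ocm, Fgfr1-ps1, Dlgap2 and Rapgef3, that of Ccnd1 on probe 53G02, and the unnamed 49A03, so any other gene named below as higher or lower at 296 h did not pass with estimated weights. Since an array pair gets the same estimated weight by construction, weights from the SD of each array were also used. They gave 174 calls (6.14%), of which 124 were shared. In simulated data with each array's spread set from its estimated weight, 38.2% of the calls made with equal weights were false. That simulation gave the 2 arrays at 296 h equal spread, unlike these data. Without replicate 1 there were 606 calls and without replicate 2 there were 5. Named genes are given with both arrays, and genes whose call at 296 h was also lost with SD weights are named as such. Rapgef3 had -1.12 and -6.82 on probe 52H05, with a mean of -0.52 over 4 to 12 h. Its probe 34A04, measured on replicate 1 alone, had -0.25.

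Gap43 and Stmn4, which are associated with axon growth, were higher on both arrays. Gap43, the growth cone protein, had log2 ratios of 1.19 and 1.61 at 296 h, 1.45, 1.504 and 1.27 at 148 h, and a mean of 0.07 over 4 to 12 h. Stmn4, a stathmin-type regulator of microtubules, had 1.42 and 2.25 at 296 h against 3.04, 1.77 and 2.25 at 148 h and a mean of -0.21 over 4 to 12 h. The late and early arrays of both genes did not overlap, though the share of all probes without overlap was not counted. Gap43 was 2.64-fold higher at 296 h (1.40 ± 0.30, SD, n = 2, limma adjusted p = 0.000472) and Stmn4 3.57-fold (1.84 ± 0.59, SD, n = 2, adjusted p = 0.000565). Both passed the threshold with estimated array weights (adjusted p = 0.0376 and 0.0265) and in the difference from 4 to 12 h, by 1.33 ± 0.20 and 2.04 ± 0.29 (SE). With estimated array weights the latter was called for Stmn4 (adjusted p = 0.0295) and not for Gap43 (adjusted p = 0.142). The difference of Gap43 between 296 and 148 h was -0.01 ± 0.23 (SE).

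The list of regeneration-associated genes had 24 genes and 27 probes measured on both arrays. Of those probes, 3 rose (Gap43, Stmn4 and Hspb1) and 1 fell (Sprr1a), against 4.94% higher and 4.38% lower over all probes. Their median log2 ratio was 0.40, against 0.0045 over all 2833 probes, and 15 of 27 were above 0 on both arrays and 6 below, against 28.7% and 31.2% of all probes. Hspb1, a small heat shock protein gene, had 0.52 and 0.57 on probe 9H02, against 0.99, 1.13 and 1.06 at 148 h. Both values at 296 h were below those at 148 h, with a difference of -0.52 ± 0.20 (SE, adjusted p = 0.152). Its other probe had 0.93 and -0.07, and the call of probe 9H02 was lost with SD weights (adjusted p = 0.0516). Gadd45a, a stress-response gene, had 0.77 and 0.72 but did not pass the threshold (adjusted p = 0.238), nor did Basp1, whose probes had opposite signs (0.38 and 0.69 on 28A06, -0.33 and -0.35 on 52H06). Sprr1a, a cornified envelope protein gene also known from injured neurons, had -0.76 and -2.31, and its mean over 4 to 12 h was already -1.09. The arginase gene Arg1 (0.21 and -0.49) and the cytokine gene Il6 (-0.21 and 0.08) had different signs on the 2 arrays and were not called. Atf3, an injury-induced transcription factor, was measured on replicate 1 alone at 296 h, with 1.97, and on no array at 148 h.

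Neuropeptide genes other than Npy were less uniform. Vgf, the precursor of several secreted peptides, had 1.23 and 1.77 on probe 1D09 and 0.18 and -4.28 on probe 52D09, so its direction depended on the probe. At 148 h probe 1D09 had 2.10, 1.70 and 2.37. Vip, the vasoactive intestinal peptide gene, had 0.83 and 4.80 at 296 h and 3.38, 1.37 and 1.75 at 148 h. All 5 late arrays were above 0 for Vip, but replicate 2 alone was 27.9-fold higher and the call (adjusted p = 0.022) was lost with estimated array weights (adjusted p = 0.23) and with SD weights (adjusted p = 0.279). Adcyap1, which encodes the peptide PACAP, had -0.45 and -0.87, and its call was lost with SD weights (adjusted p = 0.152), as was that of Vgf on probe 52D09 (adjusted p = 0.824). Gal, the galanin gene, was measured on replicate 1 only at 296 h, with 2.00, after 4.38 and 5.58 on the 2 arrays that held it at 148 h. Of the 11 neuropeptide probes tested at 296 h, 3 rose and 2 fell, with a median of 0.19, against 4.94% higher and 4.38% lower over all probes. With SD weights 2 rose and 0 fell.

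The promoters of Npy, Vgf and Vip are printed because probes of these precursor genes had the highest mean ratios among neuropeptide probes measured on both arrays. For Vgf this holds for probe 1D09 only, since its probe 52D09 had a negative mean. Gal, measured on replicate 1 alone at 296 h, was not ranked. Each promoter is the 250 bases before the start site in RefSeq (build GRCr8), 5′ to 3′ on the gene's strand. Capitals mark TGACGTCA, the cAMP response element, or its shorter form TGACG, searched on both strands; each full element also holds the shorter form on both strands.
Npy, chr4:80211861-80212110, plus strand: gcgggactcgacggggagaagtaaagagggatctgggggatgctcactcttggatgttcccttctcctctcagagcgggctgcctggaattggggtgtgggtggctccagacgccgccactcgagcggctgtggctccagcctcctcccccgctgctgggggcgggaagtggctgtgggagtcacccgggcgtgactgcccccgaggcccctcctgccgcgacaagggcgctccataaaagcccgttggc
Vgf, chr12:25277021-25277270, minus strand: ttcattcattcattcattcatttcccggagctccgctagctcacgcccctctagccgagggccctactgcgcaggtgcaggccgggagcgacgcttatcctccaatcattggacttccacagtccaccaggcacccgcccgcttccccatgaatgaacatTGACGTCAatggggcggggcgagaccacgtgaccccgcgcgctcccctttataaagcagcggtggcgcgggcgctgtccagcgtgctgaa
Vip, chr1:44470230-44470479, plus strand: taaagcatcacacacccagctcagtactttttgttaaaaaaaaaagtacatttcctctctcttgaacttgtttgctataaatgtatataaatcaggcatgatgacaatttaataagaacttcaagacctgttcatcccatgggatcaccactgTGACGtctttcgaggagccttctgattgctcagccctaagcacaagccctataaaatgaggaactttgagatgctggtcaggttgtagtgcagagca
The full element lies 90 bases before the start of Vgf, and the shorter form 97 bases before that of Vip. Neither is in the window of Npy. Over 33469 promoter windows of this length, 1.59% hold the full element and 18.2% the shorter form. A match describes these letters only.

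Naa35, a subunit of an N-terminal acetyltransferase, came next to Npy in agreement among genes higher on both arrays. It had 2.07 and 3.88 at 296 h, 4.47, 2.39 and 3.57 at 148 h, and a mean of -0.23 over 4 to 12 h. It was 7.87-fold higher at 296 h (2.98 ± 1.28, SD, n = 2, limma adjusted p = 0.000565), also with estimated array weights (adjusted p = 0.0125). Its probe sits in row 46G of the plates, which also holds Npy. In that row Npy2r, a receptor for neuropeptide Y, had 1.02 and 1.73, and the unnamed probe 46G10 had 1.53 and 3.33. These 4 were the highest of the 8 probes of the row measured on both arrays. The part of the shared plate row in these values was not tested.

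Dcn (decorin), a matrix proteoglycan gene of fibroblasts, had 1.28 and 2.50 at 296 h, with 1.41, 1.29 and 0.65 at 148 h and a mean of 0.34 over 4 to 12 h. Its effect of 1.89 ± 0.86 (SD, n = 2) passed the threshold with equal, estimated and SD weights (adjusted p = 0.000565, 0.0271 and 0.00208). Slc6a15, a transporter of neutral amino acids, had 1.13 and 2.37, and Ocm (oncomodulin), a calcium-binding protein gene, had 0.88 and 2.76. Both were also above 0 on all 3 arrays at 148 h. St8sia2, which adds polysialic acid to the adhesion molecule NCAM, had 1.57 and 2.22, and Ncam1 itself had 0.59 and 1.63 on probe 32H02 but -0.70 and -0.49 on probe 52C11 (first probe with SD weights, adjusted p = 0.0766). Ccl2, a chemokine that attracts monocytes, had 0.73 and 2.83 on probe 26C01 and -0.38 and 0.32 on probe 52C04, and its first probe had a mean of 0.98 over 4 to 12 h. Vim (vimentin), an intermediate filament gene, was close on the late arrays, with 0.87 and 0.69 at 296 h and 0.73, 0.83 and 0.91 at 148 h. Its mean over 4 to 12 h was 0.36, and the difference of 296 h from it did not pass the threshold (0.42, limma adjusted p = 0.294).

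Mbp, the myelin basic protein gene, was lower by nearly the same amount on both arrays, -1.37 and -1.35. At 148 h its values were -1.195, -0.66 and -0.31, and its mean over 4 to 12 h was 0.07. Lesioned ganglia held 2.56-fold less Mbp at 296 h (-1.36 ± 0.02, SD, n = 2, limma adjusted p = 0.00304), and the difference from 4 to 12 h was -1.43 ± 0.26 (SE, adjusted p = 0.0145). With estimated array weights neither passed (adjusted p = 0.0719 and 0.142), and with SD weights both did. Both arrays at 296 h lay below all 3 at 148 h, but the difference was not past the threshold (-0.64 ± 0.29, SE, adjusted p = 0.249). Mbp was the single call among 11 probes of myelinating Schwann cell genes, against 9.32% of all probes, and their median was 0.07. Prx (periaxin) had -0.57 and -0.39, Mag had 0.17 and -0.64, and Cnp had 0.13 and -0.00, none past the threshold.

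Genes of nociceptors, the neurons of pain sensing, were mostly lower. Calca, the precursor of calcitonin gene-related peptide, had -1.28 and -1.06 on probe 35C05, after -2.07, -1.55 and -1.40 at 148 h. Scn10a, the sodium channel Nav1.8 of nociceptors, had -0.96 and -0.94, after -1.60, -0.87 and -0.95. Tac1, the substance P precursor, had -0.88 and -0.43, after -1.90, -1.26 and -1.32. All 3 genes were below 0 on the 5 late arrays. Calca (2.25-fold lower, limma adjusted p = 0.00926) and Scn10a (1.93-fold lower, adjusted p = 0.0308) passed the threshold and Tac1 did not (adjusted p = 0.062). None of the 3 passed with estimated array weights. A second Calca probe, 52C03, had -0.47 and -0.08 at 296 h and between -0.94 and -0.84 at 148 h. Of 14 nociceptor probes tested, 2 fell, against 4.38% of all probes, and 9 were below 0 on both arrays, against 31.2%. The median was -0.29.

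Metallothionein and antioxidant genes had 5 calls lower and 1 higher among 27 probes, against 4.38% lower and 4.94% higher over all probes, with a median of -0.29. With SD weights 4 fell and 0 rose. Mt3, a metal-binding protein gene of neurons and glia, had -1.20 and -1.25 at 296 h and -1.74, -1.23 and -1.14 at 148 h. Mt1 had 3 probes that disagreed. Probe 52G03 had -1.04 and -1.07, probe 52F03 had -0.19 and -1.96, and probe 22G06 had 0.21 and 0.27. Only the last was above 0, as it was at 148 h (0.86, 0.95 and 0.66), and the call of 52F03 was lost with SD weights (adjusted p = 0.486). Gstm1, a glutathione transferase gene, had -0.85 and -1.32, and Prdx5, a peroxiredoxin gene, had -0.69 and -0.83.

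**Figure D2:**
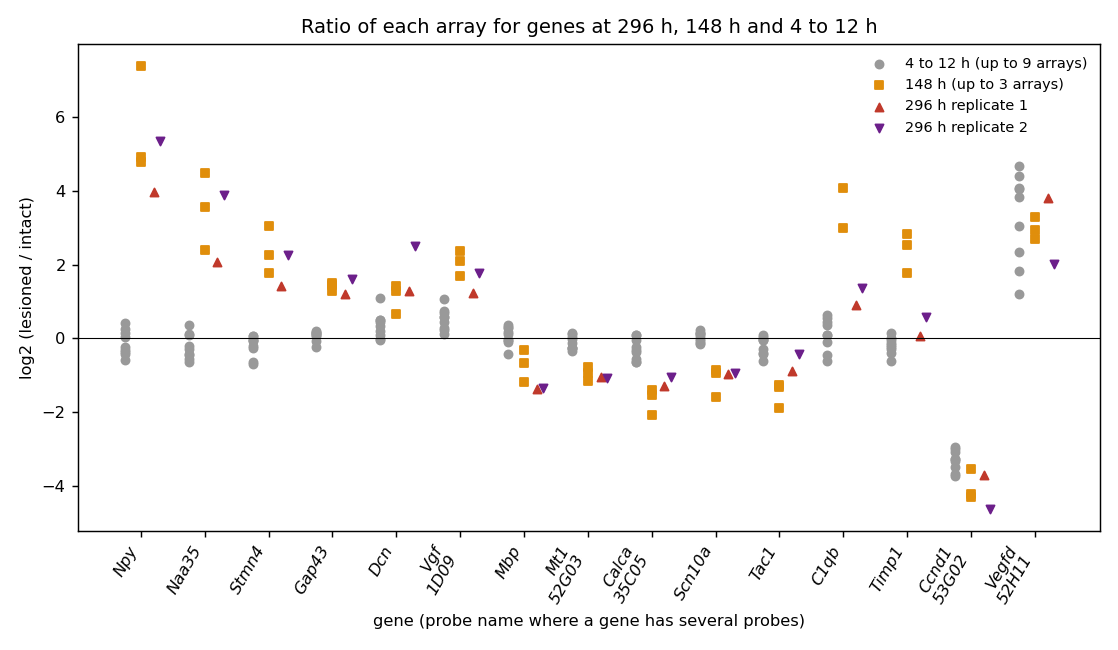
Each point is the log2 ratio of 1 array (y axis) for the gene on the x axis, at 4 to 12 h (grey), 148 h (orange) and on replicates 1 and 2 at 296 h (red and purple triangles). Npy, Stmn4 and Gap43 stay high and Mbp low at 296 h, Timp1 is back at 0.07 and 0.59, and Ccnd1 on probe 53G02 is already low at 4 to 12 h.

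Against the early arrays, 12 of 2792 probes passed the threshold (0.43%), 9 higher (0.322%) and 3 lower (0.107%), and all 12 had also passed at 296 h with the same sign. The higher probes were those of Npy, Naa35, Stmn4, Gap43, Dcn, Slc6a15, Ocm, Rab38 and Ptgds. Rab38, a small GTPase gene, had 0.58 and 2.17 at 296 h, and Ptgds, the prostaglandin D synthase gene, had 0.75 and 2.99, from a mean of -1.003 over 4 to 12 h. The lower ones were Mbp, Mt1 on probe 52G03, and Anxa5 (annexin A5, -0.58 and -0.81). The calls of Rab38 and Ptgds at 296 h were lost with SD weights (adjusted p = 0.094 and 0.351). Rab38, Ptgds and Anxa5 were named after their values had been seen. With SD weights 38 probes passed (1.36%), and with estimated array weights 3 did (0.107%), Npy, Naa35 and Stmn4. Without replicate 1 there were 403 calls and without replicate 2 there were 4.

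Several of the largest ratios at 296 h were already large within the first 12 h. Ccnd1 (cyclin D1) on probe 53G02 had -3.72 and -4.62 at 296 h and a mean of -3.31 over 4 to 12 h, while its probe 30F03 had 0.42 and -0.18. Vegfa on probe 52C12 had -2.68 and -3.08 against an early mean of -2.73, while probe 25C10 had -0.36 and 0.32. Vegfd, another vascular growth factor gene, had 3.81 and 2.02 on probe 52H11 against an early mean of 3.27, while probe 29H11 had 0.31 and 0.86. The other probes of these genes had ratios under 2-fold on both arrays. Rps6kb1, the p70 S6 kinase gene, had 1.59 and 2.22 against an early mean of 2.24, while its probe 34G05, measured on replicate 1 alone, had -0.23. Fgfr1-ps1 had -2.06 and -3.72 against an early mean of -2.25, and Dlgap2 had -2.31 and -2.98 against -1.60. Of the 264 calls, 37 lower and 4 higher ones were on plates 36, 52 and 53. Of 29 genes with several tested probes and at least 1 call at 296 h, 12 had a probe of opposite sign. No array exchanged the dyes, so an effect of the dye and one of the lesion cannot be told apart for a probe that is constant over time.

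A pair of genes was low at 296 h and nearer 0 in the first 12 h, with a wide spread at 148 h. Ptgs2, the inducible cyclooxygenase gene, had -3.94 and -4.94 at 296 h, -5.06, -0.41 and -2.19 at 148 h, and an early mean of -0.55. Ace, the angiotensin-converting enzyme gene of endothelium, had -2.64 and -5.67 at 296 h, -3.12, -0.62 and -5.78 at 148 h, and an early mean of 0.14. Both passed the threshold at 296 h and, in the difference from 4 to 12 h, only with SD weights (adjusted p = 0.0426 and 0.0396).

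The comparison with 148 h asked which changes last and which fade. At 148 h, 931 of 3187 probes passed the threshold (29.2%), and with estimated array weights 415 did (13%). Without replicate 2 at 148 h there were 593. Of the 2389 probes tested at both times, 732 were called at 148 h and 244 at 296 h. A change was called lasting if it passed the threshold at both times with the same sign. This held for 137 probes, 69 higher and 68 lower, and 3 probes were called with opposite signs. The 137 are 18.7% of the calls at 148 h, where 9.32% of all probes tested at 296 h were called. They are 56.1% of the calls at 296 h, where 29.2% of all probes tested at 148 h were called. Lasting changes were counted with equal weights only. With estimated array weights 318 of the 2389 probes were called at 148 h. Among the lasting changes, 28 were on plates 36, 52 and 53, and 10 also passed the threshold against 4 to 12 h.

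**Figure D3:**
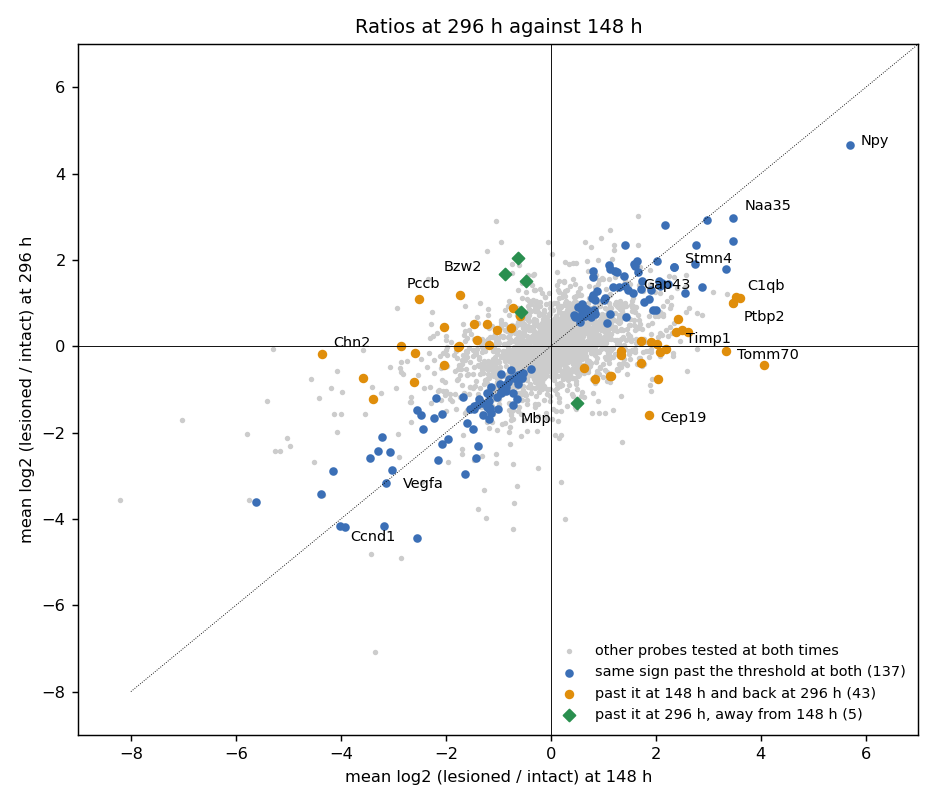
Each point is 1 probe tested at both times, with its mean log2 ratio at 148 h (x axis) and at 296 h (y axis), and the dotted line marks equal values. Blue points are the 137 lasting changes, orange points the 43 fading ones and green diamonds the 5 later ones that were not also fading. C1qb and Timp1 lie far below the line, and Gap43 on it.

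The difference between 296 and 148 h passed the threshold for 48 of 2389 probes (2.01%), 24 higher (1%) and 24 lower (1%) at 296 h. Of these, 43 were fading, meaning that they had passed the threshold at 148 h and then moved the other way, 23 from high and 20 from low ratios. With estimated array weights 1 probe passed (0.0419%), the unnamed 24D12, and with SD weights 6 did (0.251%), among them Timp1, Tomm70 and Epb41l3. Without replicate 1 at 296 h there were 247 calls. Over all probes measured, the SD was 1.61, 1.32 and 1.45 on the arrays at 148 h and 0.549 and 1.60 on those at 296 h, and the part of this spread in the fading was not tested.

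C1qb and Timp1 were among the genes that faded. C1qb, a complement chain gene of macrophages, had 2.98 and 4.08 on the arrays that measured it at 148 h and 0.90 and 1.37 at 296 h. Timp1, an inhibitor of metalloproteinases, had 2.53, 1.76 and 2.83 at 148 h and 0.07 and 0.59 at 296 h. Both genes lay lower on each array at 296 h than on any at 148 h, and the share of all probes for which this holds was not counted. C1qb fell by 2.40 ± 0.57 (SE, limma adjusted p = 0.0411) and Timp1 by 2.04 ± 0.36 (SE, adjusted p = 0.0113) between the times. With SD weights the difference of Timp1 passed (adjusted p = 0.0462) and that of C1qb was lost (adjusted p = 0.218). Neither passed with estimated array weights (adjusted p = 0.229 and 0.408). Lyz2, the lysozyme gene of macrophages, had 1.83 and 2.26 at 148 h and 0.31 and 1.07 at 296 h, but its difference did not pass (-1.35, adjusted p = 0.117). Of 11 macrophage and antigen presentation probes tested in the difference between the times, C1qb alone passed, as did Timp1 alone of 29 extracellular matrix probes, against 1% lower over all probes. Of 12 macrophage and antigen presentation probes tested at 296 h, Csf1 alone passed, lower (-0.86 and -0.88), against 4.38% lower over all probes. The median was -0.01. Csf1 is on plate 52 and had a mean of -0.56 over 4 to 12 h, with a difference of -0.31 from it (limma adjusted p = 0.629).

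Other fading genes had varied roles. Ptbp2, a neuronal splicing factor gene, had 3.78 and 3.14 at 148 h and 1.06 and 0.95 at 296 h, where it was still past the threshold. Its neighbour in the plates, Zranb2, another splicing factor gene, had 4.84 and 2.37 and then 0.63 and 1.62. Tomm70, a receptor of mitochondrial protein import, had 5.17 and 1.51 and then -0.01 and -0.23. These genes were each measured on 2 of the 3 arrays at 148 h. Acads, of fatty acid oxidation, had 2.01 and 3.21 and then 0.44 and 0.23. Slc7a1, a cationic amino acid transporter gene, had 3.23, -0.12 and 3.01 and then -0.51 and -1.005, and the nicotinic receptor gene Chrnb4 had 3.48 and 0.91 and then -0.41 and 0.26. Cep19, a centrosomal protein gene, had 2.62, 1.91 and 1.10 at 148 h and 0.05 and -3.23 at 296 h, so its fall below 0 came from replicate 2 alone. With SD weights the difference between the times passed for Tomm70 (adjusted p = 0.0490), but not for Ptbp2, Acads, Slc7a1, Chrnb4 and Cep19.

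Other fading genes were low at 148 h and had higher ratios at 296 h, which for Pccb were above 0 on both arrays. Chn2, a regulator of Rac, had -3.32 and -5.38 at 148 h and 0.02 and -0.41 at 296 h. Pccb, a subunit of propionyl-CoA carboxylase, went from -2.68, -0.92 and -1.58 to 0.95 and 1.41. Agxt2, a mitochondrial aminotransferase gene, went from -2.98, -4.41 and -3.35 to 0.03 and -1.53. For all 3 the arrays of the 2 times did not overlap. Dhh (desert hedgehog), a Schwann cell signal, went from -1.51, -3.02 and -1.58 to -0.47 and 1.33. Ppargc1a, a coactivator of mitochondrial genes, went from -3.85, -2.26 and -4.08 to -1.41 and -1.04, and Strn (striatin) from -2.03, -1.67 and -1.63 to -0.30 and 0.29. Pld1, a phospholipase gene, went from -0.97, -1.72 and -1.69 to -0.34 and 1.36, and Cd244l1, an immune receptor gene, from -2.90, -2.47 and -3.18 to -1.21 and 1.22. Of these genes, Ppargc1a, Strn and Cd244l1 are on plate 36. Means over 4 to 12 h were -0.87 for Ppargc1a, -0.83 for Pccb, -0.76 for Dhh, -0.64 for Cd244l1 and -0.40 for Strn. Those of Chn2, Agxt2 and Pld1 were 0.11, -0.15 and -0.17. With SD weights no difference of these genes from 148 h passed the threshold. Both arrays at 296 h were above those of 148 h for each of the genes low at 148 h. They were picked for the largest differences between the times, so this separation follows largely from the choice.

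A change was called later if it passed the threshold at 296 h and in the difference from 148 h in the same direction, which held for 8 probes, 6 higher and 2 lower. Bzw2, a translation regulator gene, had 0.50 and 2.83 at 296 h after -1.63, -0.66 and -0.31 at 148 h. Stx3, a syntaxin gene of membrane fusion, had 0.42 and 2.59 after -0.27, -0.70 and -0.46. Replicate 2 had the larger ratio for both, and the calls at 296 h were lost with SD weights (adjusted p = 0.252 and 0.142). Anpep, an aminopeptidase gene, had 0.22 and 1.54 after -1.05 and -0.41, and Dnah9, a dynein heavy chain gene of cilia, had 0.50 and 1.09 after -0.22 and -0.92. Epb41l3, a membrane skeleton protein gene, had 1.01 and 0.38 after -0.95, -0.07 and -0.76, the one of these genes that also passed with SD weights (adjusted p = 0.0462 in the difference). Ubqln1, a ubiquitin receptor gene, was lower, with -0.19 and -2.45 after 0.99, 0.20 and 0.30. The calls of Anpep, Dnah9, Ubqln1 and Cep19 at 296 h were also lost with SD weights. The second lower probe was that of Cep19.

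Of the 64 probes of cytoplasmic ribosomal protein genes, 7 rose and 3 fell, against 4.94% and 4.38% of all probes, and 35 were above 0 on both arrays and 15 below, against 28.7% and 31.2%. With SD weights 9 rose and 2 fell. Rps6 had 0.71 and 0.67, Rps27l 0.90 and 1.04, and Rpl22 0.95 and 0.46. The fallen members were Rplp0 (-1.20 and -1.26), Rplp2 (-0.52 and -0.54) and Fau (-0.37 and -0.89, with SD weights adjusted p = 0.0548). The median of this list was 0.14.

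Of 39 axon guidance and adhesion probes, 3 rose and 4 fell, against 4.94% and 4.38% of all probes, and 19 were below 0 on both arrays, against 31.2%. The lower ones were Efna5 (-1.70 and -2.28), a repulsive ephrin ligand, Sema3a (-1.26 and -3.63), a repulsive semaphorin, and both probes of Cdh1, E-cadherin (-1.19 and -1.56, -0.86 and -0.81). Early means were -0.62 for Efna5, -0.58 for Sema3a, and -0.88 and 0.01 for the Cdh1 probes. The call of Sema3a was lost with SD weights (adjusted p = 0.316). Of 20 probes of apoptosis regulators, Casp1 and Bak1 fell, with -0.25 and -2.13 and with -0.63 and -4.79, a share near the 9.32% of all probes. Both calls were lost with SD weights (adjusted p = 0.474 and 0.307). The median of that list was -0.14 on replicate 1 and -1.28 on replicate 2. Of 39 cAMP and G protein signalling probes, 3 rose and 2 fell, against 4.94% and 4.38% of all probes. Gnaq (1.49 and 0.73) was among the higher ones. The lower ones were Rgs4 (-1.52 and -1.26) and Adcy2 on probe 52E09 (-1.31 and -1.67, early mean -0.81). Adcy2 on probe 20A02 had 0.00 and 1.60. Of 24 axonal cytoskeleton probes, 2 rose (Vim and Stmn4) and 2 fell, against 4.94% and 4.38% of all probes. The lower ones were Nefl on probe 52A12 (-0.84 and -0.47) and Map1b on probe 31C10 (-0.77 and -2.36). Their other probes had no such fall, with -0.32 and 0.50 for Nefl on 27F06 and 0.09 and -0.33 for Map1b on 31C04, and the call of Map1b was lost with SD weights (adjusted p = 0.151).

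Aldoa, the glycolytic aldolase gene, had -1.45 and -1.65, and Pgk1, of the same pathway, had 0.66 and 0.83. They were the 2 calls among 73 glycolysis probes, of which 53 were for Gapdh, against 9.32% of all probes. Atp5f1b, a subunit of mitochondrial ATP synthase, had -2.17 and -1.59, with an early mean of -0.80. It was the single call among 23 oxidative phosphorylation probes, against 9.32% of all probes. Uchl1, a ubiquitin hydrolase gene abundant in neurons, had -1.03 and -1.14, while the proteasome subunit genes Psmc1 (0.98 and 0.42) and Psmd1 on probe 49G06 (0.78 and 0.65) were higher. Psmd1 on probe 13H09 had 0.19 and -0.06, and the call of 49G06 was lost with SD weights (adjusted p = 0.0516). In all, 3 of 29 proteasome and ubiquitin probes rose and 1 fell, against 4.94% and 4.38% of all probes, and with SD weights 1 rose and 1 fell. Of 36 synaptic vesicle probes, 3 rose and 2 fell, against 4.94% and 4.38% of all probes. The higher ones were Stx3, Rab3a (0.23 and 2.72) and Vamp3 (0.28 and 1.91), all with much the larger ratio on replicate 2. Cplx1 (complexin 1, -0.83 and -0.63) was among the lower ones. With SD weights 0 rose and 2 fell. Of 25 heat shock and chaperone probes, 3 rose and 1 fell, against 4.94% and 4.38% of all probes. Hspd1, the mitochondrial chaperonin gene (0.66 and 0.99), was among the higher ones, and Fkbp1a (-0.35 and -3.05) was the lower one. With SD weights 1 rose and 0 fell, and neither Hspd1 (adjusted p = 0.0863) nor Fkbp1a (adjusted p = 0.16) passed.

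Kcnd1, a potassium channel gene, had -1.004 and -1.54, and was below 0 on all 3 arrays at 148 h, with an early mean of -0.65. Kcnc1 had 0.48 and -6.78, opposite in sign. Of 21 sodium and potassium channel probes, 3 fell, Scn10a and both of these, against 4.38% of all probes. Kcnc1 did not pass with SD weights (adjusted p = 0.915). Ntf3, the neurotrophin-3 gene, had -0.69 and -3.03, a call lost with SD weights (adjusted p = 0.195). It was the single call among 14 probes of neurotrophic ligands and receptors, against 9.32% of all probes. Its other probe, measured on replicate 1 alone, had -0.25. Of 35 probes of extracellular matrix genes, 2 rose and 2 fell, against 4.94% and 4.38% of all probes. Dcn and Mgp, the matrix Gla protein gene (0.87 and 1.28), were higher. Plau, the urokinase gene (-0.84 and -1.99, early mean -0.64), and Mmp12, a macrophage metalloproteinase gene (-0.36 and -2.01), were lower. With SD weights 2 matrix probes rose and 0 fell, and Mgp, Plau and Mmp12 did not pass. Among 18 chemokine and interleukin probes, 1 rose (Ccl2) and 2 fell, against 4.94% and 4.38% of all probes. Cxcr4 on probe 52D06, a chemokine receptor gene (-0.68 and -2.23), and Tgfb3 (-0.91 and -2.01) were lower. Both are on plate 52, with early means of -0.94 and -0.98. Cxcr4 on probe 25F02 had -0.30 and 0.57, and the call of 52D06 was lost with SD weights (adjusted p = 0.108).

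Of the 31 lists, 8 had no call at 296 h, among them gp130 cytokines and their receptors (7 probes), satellite glia (9), cholesterol synthesis (12) and calcium channels (7). Lists for tissue that could come along with a ganglion had few probes. Skeletal muscle genes had no call among 8 probes, and Ckm, the muscle creatine kinase gene, had -0.40 and -2.71. Red blood cell genes had no call among 4 probes. T and B cell genes had 1 call among 6 probes, against 9.32% of all probes. It was Gzmb (granzyme B) on probe 13D11 (-3.40 and -3.26), whereas the other Gzmb probes had -0.32 and -1.25 and -0.18 and -1.79. Endothelial genes had 3 calls lower among 9 probes, Ace, Vegfa on probe 52C12 and Nos3 on probe 52A02 (-0.96 and -1.61), against 4.38% of all probes. Vegfa on 52C12 was as low at 4 to 12 h, and Nos3 on 52A02 had an early mean of -0.80 and lost its call with SD weights (adjusted p = 0.126). The 3 other Nos3 probes, on replicate 1 alone, had -0.01, -0.16 and -0.03.

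**Figure D4:**
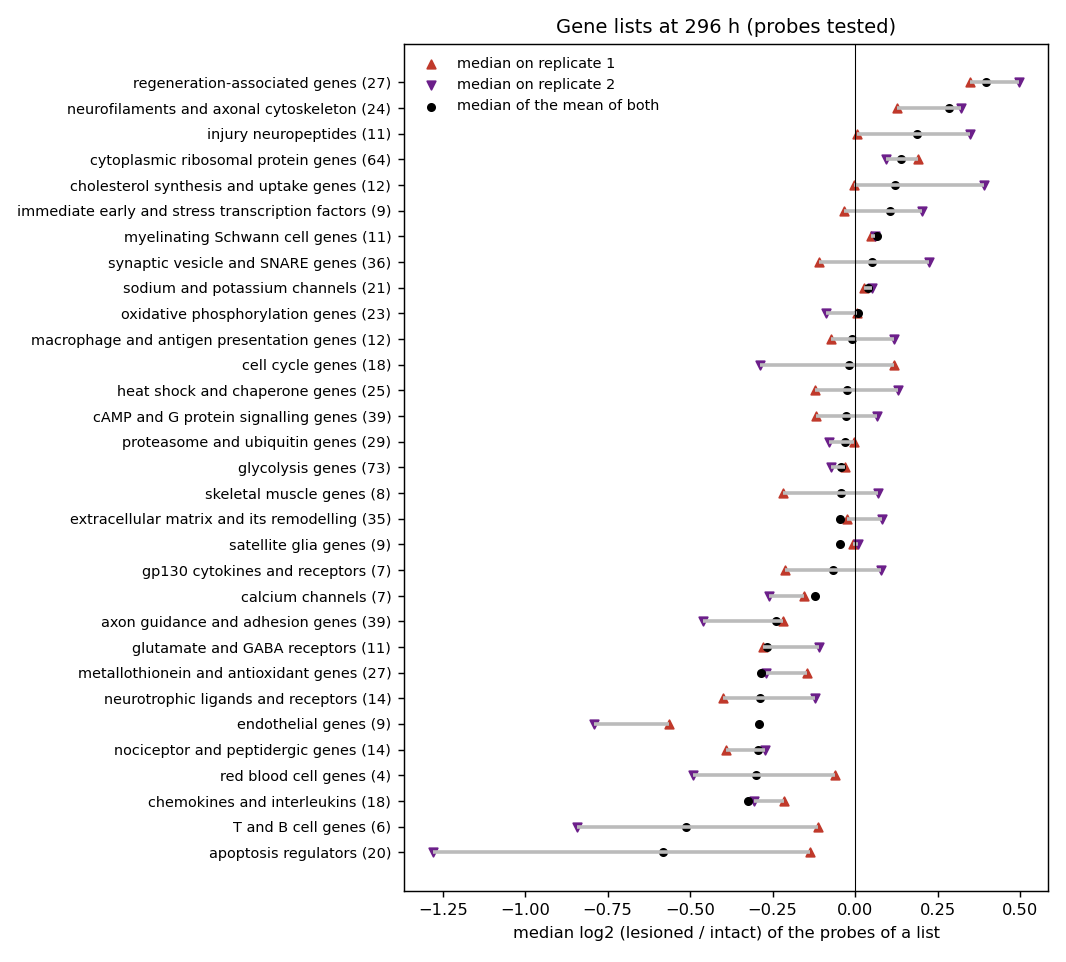
Median log2 ratio (x axis) of the probes of each gene list at 296 h, on replicate 1 (red), on replicate 2 (purple) and of the mean of both (black), with the number of probes tested beside the name. Regeneration-associated genes have the highest median, 0.40, close on both arrays, and apoptosis regulators the lowest, -0.58, with -0.14 and -1.28 on the single arrays.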

How the data were processed

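The authors deposited 1 linear ratio of the 2 channels per probe and array of spotted oligonucleotides. The scanner software, background correction and normalization are not given in the sources used here. Which channel is the numerator is not stated in the file, and lesioned over intact was taken from the dyes. All ratios were converted to log2 without an offset, with no centring, since array medians were near 1. Of 5088 probes, 4423 carried 1 gene symbol, 2 several and 663 none. The symbols are those of the platform annotation.

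A linear model with a mean for each of 8 times was estimated over all 23 arrays by limma (version 3.58.1, R 4.3.3), with two-sided moderated tests and Benjamini-Hochberg adjustment over all probes tested. Probes needed 2 arrays at each time compared. An SE uses the pooled variance and can be smaller than the spread of 2 arrays. On simulated data with equal spread, 3.62% of the calls at 296 h were false. With each array's spread set from its estimated weight, 38.2% were, and 4.29% when the fit used those weights. The weighted fit then found 54% of changes of log2 2, against 80.4% with equal weights. Both arrays at 296 h have the same estimated weight, so they were simulated with equal spread. Their measured SDs were 0.549 and 1.60, so these shares cannot stand for the false calls in the data. The number of arrays limits the precision.

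The gene lists were written from general knowledge. Named genes were those with the best agreement of the 2 arrays (signed, after dividing each array by its spread), those called with array weights, up to 4 called members of a list, the extremes of lasting, fading and later changes, and a set of genes known from nerve injury. Not all are reported. Where arrays of different times are said not to overlap, the share of all probes for which this holds was not counted. Members, lists and rules were chosen with earlier results of these data known.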

Additional observations from a re-analysis of the deposited data

Results flagged for a closer look

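The effect at 296 h differed from that at 148 h for 48 probes in limma's test of the difference, and the following values are that difference (296 h minus 148 h, log2) for the named ones. Lower at 296 h were Cep19 (-3.46), Tomm70 (-3.46), Slc7a1 (-2.80), Zranb2 (-2.48), Ptbp2 (-2.46), C1qb (-2.40), Acads (-2.28), Chrnb4 (-2.27), Timp1 (-2.04) and Ubqln1 (-1.81). Higher at 296 h were Chn2 (4.16), Pccb (2.91), Cd244l1 (2.85), Agxt2 (2.83), Bzw2 (2.53), Dhh (2.47), Ppargc1a (2.17), Stx3 (1.98), Pld1 (1.97), Strn (1.77), Anpep (1.61), Dnah9 (1.36) and Epb41l3 (1.28). With estimated array weights none of these named genes passed the threshold.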

How the results depend on the processing

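Counts of probes past the threshold moved with the weight given to each array and with the arrays used. At 296 h the 264 calls became 11 with estimated array weights, 174 with SD weights (an alternative chosen after seeing the data, 74 higher and 100 lower), 91 after scaling arrays to 1 median absolute ratio, 172 with a replicate block, 163 when 1 array was enough, 13 with full arrays only (replicate 1), 0 with only the 296 h arrays in the fit (127 at an unadjusted p under 0.05), 0 in the methods' Student test with Benjamini-Hochberg adjustment (168 at an unadjusted p under 0.05), and between 5 and 606 without 1 replicate. At 148 h the 931 calls became 415 with array weights, 184 with SD weights, 228 after scaling, 0 with only those arrays (616 unadjusted), 0 in the Student test (417 unadjusted), and between 593 (without replicate 2) and 672 without 1 replicate. For 296 minus 148 h the 48 calls became 1, 6 and 1 with array weights, SD weights and scaling, 0 with only the arrays of those times (114 unadjusted), 24 with a replicate block, 130 when 1 array was enough, and between 33 and 247 without 1 replicate. For 296 minus 4 to 12 h the 12 calls became 3 with array weights, 38 with SD weights, 4 after scaling (4 higher, 0 lower, against 9 and 3), 6 with a replicate block, and between 4 and 403 without 1 replicate. With only the arrays of 296 h and 4 to 12 h in that fit there were again 12 calls, 5 higher and 7 lower. Of these, 6 were among the original 12. The cause of these shifts was not tested, beyond the smaller number of arrays where arrays were left out.

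Deviations of the arrays of 296 and 148 h from the mean of their time correlated between -0.023 and 0.030, with no sign that replicate numbers pair them. The deviations of the 2 arrays at 296 h mirror each other, so these values cannot settle a pairing. The block stands for a shared number only. Probes at least 2-fold the same way on both arrays numbered 100, and 286 at a limit of 1.5-fold. Centring and robust variance left all counts of calls within 1.5 times. Of 127 effects of named genes, 114 lost their call with array weights, 63 with SD weights and 80 after scaling, and none changed direction under these. On replicate 1 alone the effect at 296 h had the opposite sign for Cep19 (0.049), Ddx1 (-0.19), Kcnc1 (0.48), Ube2d3 (-0.022) and Vgf on probe 52D09 (0.18), against -3.23, 4.86, -6.78, 3.37 and -4.28 on replicate 2 alone. The mean of both Vgf probes was -0.28, opposite to probe 1D09.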
